A study of Homo sapiens with 4 samples.

Results

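The genes of the Sm and LSm protein family whose products are substrates of PRMT5, or partners of such substrates, were followed in the RNA recovered with PRMT5. The 10 members were chosen by gene symbol, and they comprised the 7 Sm genes SNRPB, SNRPD1, SNRPD2, SNRPD3, SNRPE, SNRPF and SNRPG together with LSM4, LSM10 and LSM11. They were found by gene identifier in the deposited peak list, and 9 of the 10 had at least 1 peak, against 8478 genes with a peak in all. The share of all annotated genes with a peak was not computed, so no count of genes with a peak can be called high or low here. These 9 genes carried 14 of the 18993 peaks. LSM11 had no peak in the list. The samples were 2 PRMT5 RIP libraries and 2 input libraries from the human leukemia T cell line Jurkat, and all cells were stimulated with PHA, a T cell mitogen, for 48 hours. According to the labels all cells were fixed with UV light of 264 nm at 400 mJ before lysis, and the RIP libraries hold RNA immunoprecipitated with a FLAG antibody. No genotype or FLAG construct is given in the labels, and no immunoprecipitation without PRMT5 was analysed here.

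Sm proteins form a ring around the small nuclear RNAs of the spliceosome, which makes them core parts of the particles (snRNPs) that remove introns. PRMT5, with its partner WDR77 and the adaptor CLNS1A, puts symmetric dimethyl groups on arginines in the glycine- and arginine-rich tails of the proteins of SNRPB, SNRPD1, SNRPD3 and LSM4, and this methylation precedes ring assembly. SNRPD2, SNRPE, SNRPF and SNRPG encode the ring partners that complete the particle, and LSM10 and LSM11 take the places of SNRPD1 and SNRPD2 in the U7 particle, which cleaves histone pre-mRNA. The values below describe the mRNAs of these genes in PRMT5 RIP, not the binding of PRMT5 to their proteins.

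Each peak has 1 RPM value (reads per unit of library size) for PRMT5 RIP and 1 for input, which the authors pooled over the libraries, so no spread between replicates and no test over samples can be given, and the read depth of each library is unknown. Over the whole list the RPM values summed to 755969 for PRMT5 RIP and 489424 for input. Of 11 T cell markers, 10 had a peak of a uniquely named gene, with a summed input RPM of 1097. Of 5 B cell markers only CD79A had a peak (37.3 RPM in input), of 5 myeloid markers only CSF1R had one (29.5 RPM in input), and none of 4 epithelial markers had one.

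Messages of the methylated proteins were not set apart from those of the other members. The 4 genes of methylated proteins ranged from 1.48-fold (SNRPD3) to 2.68-fold (LSM4) the RPM of input in PRMT5 RIP, and the 5 others ranged from 0.961-fold (SNRPE) to 3.09-fold (SNRPF). The gene with the highest ratio and the 3 with the lowest ratios were therefore all in the set of other members. The third lowest, LSM10 (1.47-fold), lay close to SNRPD3. By the log2 fold change of the peak caller, LSM10 (1.59) lay above SNRPD1 (1.39) and SNRPD3 (1.26). A gene was described by the median of the log2 RPM ratio over its peaks, with 0.01 RPM added to each value. Over the 9 genes the median was 0.61, against 1.20 over all 8478 genes, of which 90% had a value between 0.17 and 2.53. Of the 9 genes, 4 reached a ratio of at least 2-fold, while 61.9% of all genes did. By RPM summed over the peaks of a gene, only LSM4 and SNRPF did, against 62.3% of all genes.

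All 9 members with a peak had an input RPM, summed over their peaks, above the median of all genes. The ratio was lower at higher summed input throughout the list. The median log2 RPM ratio went from 1.90 in 624 genes with a summed input of at most 0.1 RPM to 0.70 in 434 genes over 100 RPM. Input RPM is also the denominator of the ratio. The list holds only called peaks, 96% of them with more RPM in PRMT5 RIP than in input. Part of the fall can therefore come from the measure and from this selection, and its size was not tested. The input RPM summed over the peaks of a gene ran from 7 RPM (SNRPF) to 407.8 (SNRPD2), against a median of 2.28 over all genes, and even SNRPF lay above 67.8% of genes. These sums were not scaled to peak width. Per kb of peak the input was 0.98 RPM in SNRPF and 122.2 RPM in SNRPD2. Genes with a summed input of at least 5 RPM, of which there were 3155, had a median log2 RPM ratio of 0.82, and 37.5% of them reached 2-fold. Against these, 4 of the 9 members lay above the median and 5 below it. This limit on abundance was chosen after the values were seen. The order of the member median and the median of all genes also turned with the pseudocount, being 0.59 against 0.52 when 1 RPM was added to each value.

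**Figure D1:**
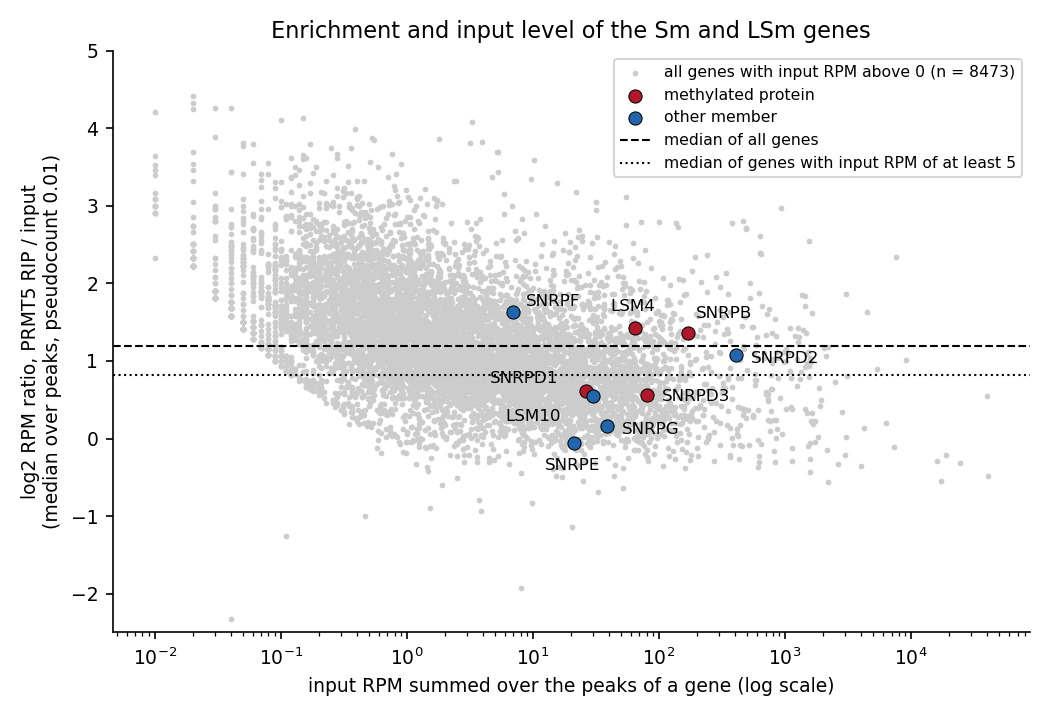
Log2 RPM ratio of PRMT5 RIP over input (median over the peaks of a gene, pseudocount 0.01) against input RPM summed over the peaks (log scale), with 1 gray point for each of 8473 genes with input above 0. Red points are genes of methylated proteins, blue points are the other members, and the lines mark the medians of all genes (1.20, dashed) and of genes with at least 5 RPM in input (0.82, dotted). The ratios fall with input level, and the 9 members lie in the right part of the plot from -0.06 to 1.63. The axis range leaves out 2 genes.

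The highest ratio of any member peak lay at the start of SNRPB, and the sequences at annotated start sites place such 5′ peaks. The 30 bases around the start site closest to the upstream end of the peak are given for the 2 members with a narrow peak across the start site, SNRPB and SNRPD2, and for LSM4 and SNRPD3, where 1 wide peak begins close to it. They are from RefSeq (GRCh38.p14), read 5′ to 3′ on the strand of the gene with 15 bases before the start site, and capitals mark bases inside the peak.
SNRPB, chr20:2470775-2470804, minus strand: attTTACGTGGTGCTGCATTTCCGGTAGCG
SNRPD2, chr19:45691939-45691968, minus strand: aaGAGGAAGTCCCGCCTCTCTCTCCTCAGG
SNRPD3, chr22:24555984-24556013, plus strand: ggtgttaggcccgccATTCGCTTGACTCAC
LSM4, chr19:18323062-18323091, minus strand: gcgacgaccgccgggagcgTGTGCAGCGGC
In SNRPB the peak began 12 nt upstream of the annotated start, and in SNRPD2 it began 13 nt upstream of the innermost of its annotated starts. In SNRPD3 the first base of the peak was the start site itself, in LSM4 the peak began 4 nt downstream, and in SNRPF 25 nt downstream. Whether peak edges follow bins of 25 nt counted from annotated starts is not stated in the sources used here and was not tested. If they do, the offsets and capitals are no finer than the bins, and closeness to starts partly follows from the annotation. Of the 8 members with a peak and a start site in the table, 6 had a 5′-most peak beginning within 50 nt of a start, against 48.8% of 5871 named genes. The first peaks of SNRPE and SNRPG began farther from the start sites of the table, but 25 nt and 4 nt inside the outer edge of the annotated gene. SNRPD1 was not in the table of start sites. The start-site windows of 300 bases had a GC content from 54.7% to 70.7% over the 6 members placed in this way, with a median of 60.8%, against 58.7% over all windows of the table.

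SNRPB encodes the SmB protein, 1 of the methylated Sm proteins. Its identifier, ENSG00000125835.20, had 2 minus-strand peaks on chromosome 20 (GRCh38). The 5′ peak, 100 nt wide and from 2470702 to 2470801, measured 25.6 RPM with PRMT5 and 7.25 RPM in input, a ratio of 3.53. The 3′ peak, from 2461659 to 2465808, had 303.3 RPM against 161.5 RPM, a ratio of 1.88. The ratio at the start of the gene was the highest of all 14 member peaks, above 80.2% of the peaks of the list, while the 3′ peak held most of the reads and lay above only 40.2%. A further peak, from 2467312 to 2492717, listed the SNRPB identifier after that of another gene and was not assigned to SNRPB here. It had 89.2 RPM against 30.9 RPM, a ratio of 2.88, and it reached far beyond the gene and overlapped the 5′ peak.

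LSM4 encodes a methylated LSm protein of the rings that bind the spliceosomal RNA U6 and take part in mRNA decapping. Its single peak (ENSG00000130520.11) on the minus strand of chromosome 19, from 18307011 to 18323072, covered 95.4% of the gene. It measured 173.5 RPM with PRMT5 and 64.7 RPM in input, a ratio of 2.68.

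SNRPD1 and SNRPD3, which encode methylated partners in the same ring, lay lower. The single SNRPD1 peak (ENSG00000167088.11) on the plus strand of chromosome 18, from 21612314 to 21629062, measured 40.4 RPM with PRMT5 and 26.5 RPM in input, a ratio of 1.53. The single SNRPD3 peak (ENSG00000100028.12) on the plus strand of chromosome 22, from 24555999 to 24571980, had 119.5 RPM against 80.8 RPM, a ratio of 1.48. The SNRPD3 peak also listed a further identifier, so some of its reads may belong to another transcript. SNRPD1 lay above 17.8% and SNRPD3 above 15.6% of all genes. By the median over peaks, the methylated set was thus split between a pair near 2.6-fold and a pair near 1.5-fold. This split depended on the measure, since SNRPB had a log2 ratio of 0.96 by summed RPM, below 2-fold.

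Among the ring partners that are not in the methylated set, SNRPF and SNRPD2 were the highest. SNRPF (ENSG00000139343.11) had 1 peak on the plus strand of chromosome 12, from 95858977 to 95866088, which measured 21.6 RPM with PRMT5 and 7 RPM in input. Its ratio of 3.09 was the largest gene-level value of the 9 members with a peak. It lay above 72.0% of all genes and above 90.0% of those with at least 5 RPM in input. It was also the member with the lowest input.

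SNRPD2 (ENSG00000125743.11) had the highest RPM of the family. On the minus strand of chromosome 19, its 5′ peak from 45691752 to 45691966 measured 74.4 RPM with PRMT5 and 26.8 RPM in input, a ratio of 2.78. Its 3′ peak from 45687460 to 45690582 had 611.3 RPM against 381.0 RPM, a ratio of 1.60. As in SNRPB, the gene-level value rests on a narrow 5′ peak of high ratio and a wide 3′ peak of lower ratio. When the RPM values were summed over the peaks of a gene, the log2 ratio fell from 1.08 to 0.75 for SNRPD2 and from 1.36 to 0.96 for SNRPB, and both then lay below 2-fold.

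SNRPE and SNRPG encode small partners of SNRPF in the ring, and their messages had nearly the same RPM in both kinds of library. SNRPE (ENSG00000182004.13) had 2 peaks on the plus strand of chromosome 1. The first, from 203861624 to 203863632, measured 11.2 RPM with PRMT5 and 10.6 RPM in input. The second, from 203863658 to 203865047, had 9.18 RPM against 10.6 RPM, and it was the only member peak with less RPM than its input. By the gene-level ratio, SNRPE lay above 1.76% of all genes.

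SNRPG (ENSG00000143977.14) had 3 minus-strand peaks on chromosome 2. From the 5′ to the 3′ end they measured 7.68 RPM with PRMT5 against 5.49 RPM in input, 23.7 RPM against 21.2 RPM, and 12.6 RPM against 12.1 RPM. The ratios were 1.40, 1.12 and 1.04, and the gene lay above 4.85% of all genes. Processed copies are frequent for these small genes, and reads from near-identical copies cannot be told apart in the list. The RefSeq table named 20 pseudogenes of SNRPG and 11 of SNRPE, against 4 of SNRPF, 2 of SNRPD2, 1 of SNRPB and 0 of the other members. A peak of the list touched 1 of those of SNRPG, 1 of those of SNRPD2 and 0 of those of SNRPE. Their part in the low ratios of SNRPG and SNRPE was not tested.

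LSM10, a subunit of the U7 particle, had 1 peak (ENSG00000181817.6) on the minus strand of chromosome 1, from 36393536 to 36397898, which measured 43.8 RPM with PRMT5 and 29.8 RPM in input. Its ratio of 1.47 was close to those of SNRPD1 and SNRPD3. LSM11, its partner in that particle, had no peak. Since the list holds only called peaks, this gives no value for LSM11 in either library.

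**Figure D2:**
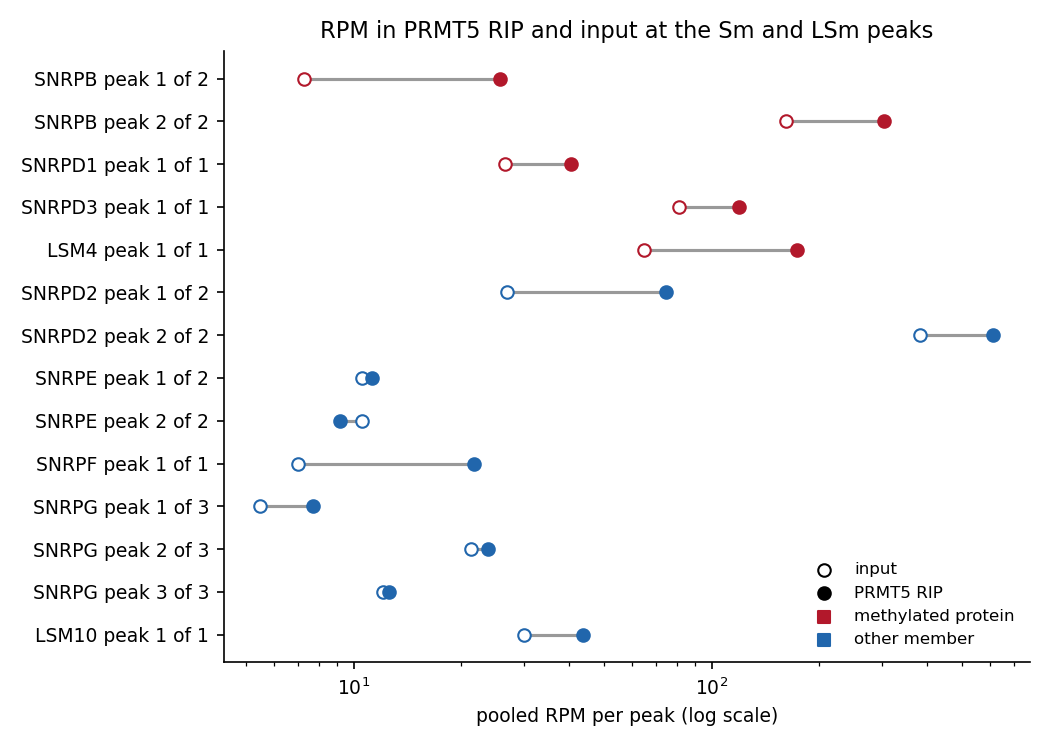
Pooled RPM (log scale) at the 14 member peaks, numbered from the 5′ end of each gene, with open circles for input and filled circles for PRMT5 RIP; red marks genes of methylated proteins and blue the other members. RPM was higher in PRMT5 RIP at 13 peaks and lower at the second SNRPE peak, and the gap was widest at the 5′ peak of SNRPB.

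In 13 of the 14 peaks PRMT5 RIP exceeded input in RPM, against 96% of all peaks, so this count was near that of the list. At least 2-fold was reached by 4 of the 14, namely the 5′ peaks of SNRPB and SNRPD2 and the single peaks of LSM4 and SNRPF, against 55.7% of all peaks. With 1 RPM added to each value the same 4 peaks stood against 18.5% of all peaks, so the order of these shares turned with the pseudocount. All 14 had an FDR at or below 0.01 from the peak caller, as did 96.9% of the list. The log2 fold change of the peak caller was higher than the log2 RPM ratio at every member peak, by 0.41 to 1.04, and by that measure 10 of the 14 reached 2-fold, against 91.2% of peaks with a value. None of the 14 overlapped a peak on the opposite strand.

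The ratio was higher toward the 5′ end in all 4 members with more than 1 peak. The log2 RPM ratio at the 5′-most and the 3′-most peak was 1.82 and 0.91 in SNRPB, 1.47 and 0.68 in SNRPD2, 0.09 and -0.20 in SNRPE, and 0.48 and 0.06 in SNRPG. The same order was found in 69.5% of 4657 genes with at least 2 peaks, so it was the prevailing order of the list and not particular to the family. The other 5 members had a single peak, which covered from 79.0% of the annotated gene in SNRPD1 to 98.9% in SNRPF, introns included. Member peaks were wide, with a median of 4043 nt and a range from 100 nt to 16749 nt, against a median of 275 nt over all peaks. Inside such a wide peak the list does not show where the reads lay.

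**Figure D3:**
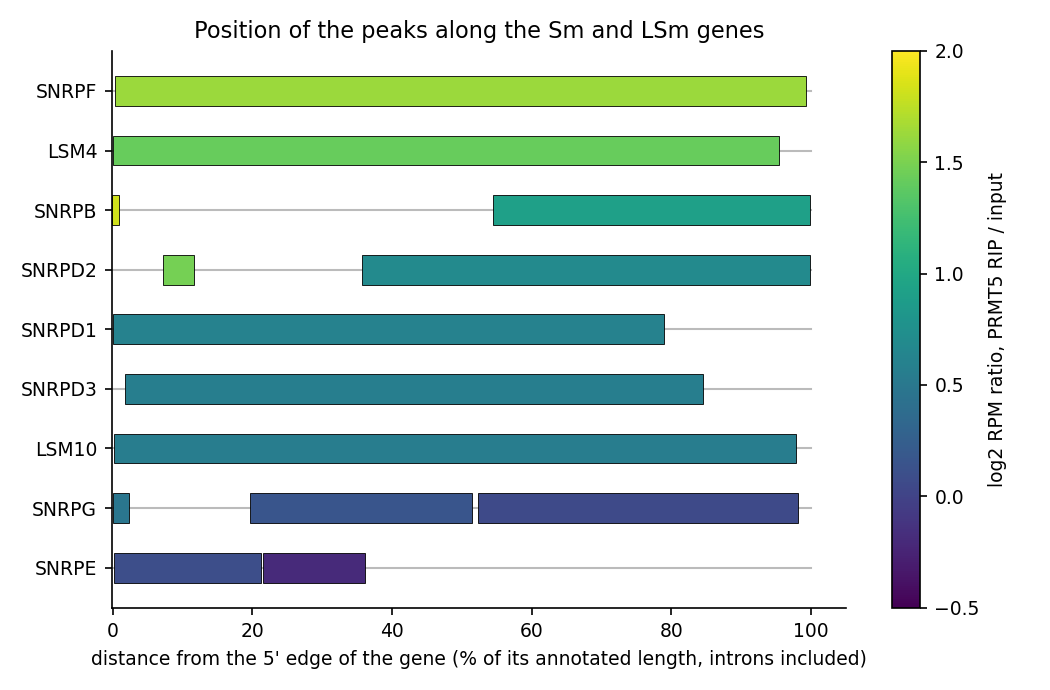
Peaks (bars) along the annotated length of each of the 9 genes, from its 5′ edge (0%) to its 3′ edge (100%), introns included and colored by the log2 RPM ratio of PRMT5 RIP over input. Genes are ordered by their gene-level ratio, and the 5′ bars of SNRPB, SNRPD2, SNRPE and SNRPG have higher ratios than their 3′ bars.

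Between the 2 sets named by methylation, the median log2 RPM ratio was 0.99 for the 4 genes of methylated proteins and 0.55 for the 5 others, a difference of 0.43. With so few genes and pooled values the difference was not tested. The ranges overlapped: SNRPD2 fell within the range of the methylated set, SNRPF lay above it, and SNRPE, SNRPG and LSM10 lay below it. The place of LSM10 depended on the measure, since by the log2 fold change of the peak caller it (1.59) lay above SNRPD3 (1.26). By the median log2 RPM ratio, at least 2-fold was reached by 2 of the 4 and by 2 of the 5, against 61.9% of all genes. By summed RPM only LSM4 and SNRPF remained at 2-fold, against 62.3% of all genes. The difference rested on the choice of genes, since among the 7 Sm genes alone, without LSM4 and LSM10, it was -0.0094. It was 0.23 by summed RPM and 0.21 by the peak of highest input in each gene.

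Other genes of snRNP assembly were counted from lists chosen with earlier results known. The other LSm genes comprised genes of the rings for U6 RNA and for mRNA decay, together with LSM12, LSM14A and LSM14B. Of these, 4 of 9 with a uniquely named peak set reached 2-fold, namely LSM6, LSM7, LSM14A and LSM14B. The median log2 RPM ratio was 0.92. In these lists the counts stand against 61.9% of all genes, and against 37.5% of genes with at least 5 RPM in input. LSM6 (2.10) and LSM7 (2.02) were the highest and LSM5 (0.37) and LSM8 (0.64) the lowest. LSM7 measured 311.3 RPM with PRMT5 and 76.7 RPM in input, so a high ratio was also seen at an abundant message of the family. LSM1 could not be assigned to a single identifier.

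Of 21 genes for proteins particular to single snRNPs, 20 had a uniquely named peak set. Of these, 11 reached 2-fold, and the median was 1.25 against 1.20 over all genes. By summed RPM the order turned, with a median of 1.01 against 1.20 over all genes. USP39, a factor of the tri-snRNP, had the highest value with 2.51, and SNU13, which binds U4 RNA, had 2.03. The SNU13 value depended on the measure, since by RPM summed over its 4 peaks (90.6 RPM with PRMT5 and 69.1 RPM in input) the log2 ratio was 0.39, below 2-fold. PPIH (0.29), a cyclophilin of the tri-snRNP, and SNRPC (0.31), a U1 protein, were the lowest.

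The methylosome list held genes of the complex around PRMT5 itself together with PRMT7, a separate methyltransferase. Of these 6 genes, 2 reached 2-fold, and the median was 0.67. COPRS, a PRMT5 cofactor on chromatin, had 1.57 by the median over its peaks but 0.82 by summed RPM. By summed RPM only PRMT7 (1.20) remained at 2-fold among the 6. PRMT7, a methyltransferase related to PRMT5, had 1.26. PRMT5 had 0.46 by the median over its peaks and 0.14 by summed RPM. CLNS1A, which brings Sm proteins to PRMT5, had 0.16, with 13.1 RPM against 11.3 RPM in input. Both the enzyme and the adaptor thus lay in the low range of the Sm genes.

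Genes of snRNP assembly and transport had the highest median of these lists, 1.52, with 7 of 8 at 2-fold or more. Among those with at least 1 RPM in input, SNUPN, the import adaptor of snRNPs, had 1.92 and GEMIN4 had 1.12, while STRAP had 0.55 and GEMIN7 1.11. These genes were of low abundance, with a median summed input of 1.14 RPM. Among them, GEMIN8 (0.06 RPM), GEMIN2 (0.17 RPM), TGS1 (0.26 RPM) and DDX20 (0.47 RPM) lay below 0.5 RPM. Over all genes the median log2 RPM ratio was 1.90 in those with at most 0.1 RPM and 1.70 in those with 0.1 to 0.5 RPM. It was 1.45 in those with 0.5 to 1 RPM and 1.17 in those with 1 to 5 RPM. No peak touched the other 4 genes of the list. Of the histone pre-mRNA processing factors that act with the U7 particle, 4 of 9 had a peak, and 3 of these 4 reached 2-fold. No peak touched the other 5. ERI1, an exonuclease, had 1.33. SLBP, the histone stem-loop binding protein, had 0.88 by the median over its 2 peaks and 1.57 by summed RPM, above 2-fold.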

How the data were processed

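RNA recovered by FLAG immunoprecipitation of PRMT5 was compared with input RNA in 2 libraries each. The submitters' processing notes name fastp, HISAT2 and the build hg38, and the peak caller, the annotation and the strand setting in counting are not given in the sources used here. The authors deposited 1 peak list with RPM values, rounded to 0.01 and pooled per condition. The log2 fold change, p-value (not used here) and FDR in the deposited list are those of the authors' peak caller, whose scaling is not stated. Peak starts were raised by 1, and a peak with several identifiers went to the first of them. Symbols came from the 1999 rows used of the paper's second supplemental table, otherwise from the RefSeq gene (GRCh38.p14) touched by all peaks of an identifier on the same strand, which named 7188 of 8478 identifiers. The strand of SNRPD1 was that of its peak. Log2 RPM ratios took a pseudocount of 0.01. No test was run, because the list gives no value per library, and precision from depth is unknown. The named genes were all members and, in each list, the 2 highest and 2 lowest ratios with at least 1 RPM in input. Members, lists and comparisons were chosen with earlier results of these data known. Alternatives covered the pseudocount, the measure, filters on peaks and the membership of both sets. The computation used Python 3.11.15, pandas 2.3.3, numpy 2.4.6 and matplotlib 3.10.9.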

Additional observations from a re-analysis of the deposited data

How the results depend on the processing

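The count of 9 genes with a peak was the same under its 4 alternatives. The count of 4 peaks at 2-fold was the same with other pseudocounts or at least 0.5 RPM in input, while the share of all peaks at 2-fold, 55.7%, was 43.9% with a pseudocount of 0.1, 18.5% with 1 and 43.8% with at least 0.5 RPM in input. By the peak caller's log2 fold change the count was 10. The member median of 0.61 was 0.59 with a pseudocount of 1, 0.55 with only peaks narrower than 5000 nt, which left 5 genes, and 1.59 by the peak caller's log2 fold change, against 2.06 over all genes by that measure. The difference of 0.43 between the sets was 0.41 with a pseudocount of 1, 0.23 by summed RPM, 0.21 by the peak of highest input and 0.16 by the peak caller's log2 fold change. It was 0.93 with only peaks narrower than 5000 nt, where SNRPB alone stood for the methylated set, and 0.37 without LSM10. It was -0.0094 for the Sm genes alone, so its sign depends on LSM4 and LSM10. Counting every listed identifier, an alternative added after seeing the data, gave 0.46. By summed RPM only LSM4 and SNRPF remained at 2-fold among the members. Summing RPM over the peaks of each gene of the other lists was also added after seeing the data. Counts at 2-fold then went from 11 to 10 among the snRNP proteins outside the rings. The median of that list went from 1.25 to 1.01, against 1.20 over all genes by either measure. The counts went from 2 to 1 in the methylosome list, where PRMT7 remained, and from 3 to 4 among the histone factors. Those of the other LSm genes (4) and of assembly and transport (7) stayed the same, against 62.3% of all genes. The gene-level value of SNRPE, -0.06, was 0.69 by the peak caller's log2 fold change. No paired analysis was possible because the list holds 1 pooled value per condition, and for the same reason no replicate could be left out. Depth is unknown, so small differences between members cannot be judged.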
